A study of Mus musculus with 6 samples.

Results

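Tetraploid cardiomyocytes (4n CMs) of the left ventricle of C57BL/6J mice were compared between postnatal day 1 (P1) and postnatal day 5 (P5). The hearts were dissociated enzymatically, and the cells were fixed in methanol, stained for the sarcomeric myosin MYH1 and for DNA with Hoechst, and sorted into a diploid (2n) and a tetraploid (4n) gate. The mice were not reported to carry any transgene or treatment, and the litters of the ages came from different breeding pairs. Cells were kept as CMs when they held at least 1 unique molecular identifier (UMI, the tag that counts 1 captured RNA molecule) of each of Tnni3, Tnnt2, Actc1 and Tnnc1, which encode cardiac troponins I, T and C and cardiac actin. This left 4747 of 4777 cells of P1-4n and 3654 of 3678 cells of P5-4n, together 8401 of the 31156 cells in the 6 libraries of the series. The diploid cells of the same ages, P1-2n with 7340 CMs and P5-2n with 4413 CMs, are given beside them. Each age and ploidy is 1 library made from sorted cells of pooled litters, so there is no replicate, no test was made, and no difference between ages can be told apart from a difference between libraries. The 4n gate holds diploid CMs that have replicated their DNA (G2/M), tetraploid CMs with 1 or 2 nuclei, and any pair of diploid cells that passed as 1 particle. These cannot be told apart by DNA content.

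CMs of the newborn mouse pass through a last round of DNA synthesis during the first days of life. Many of them enter mitosis but fail to divide the cell body, and become binucleated and polyploid. Over the same days the heart turns to oxidative metabolism, the fetal myosin and troponin isoforms give way to the adult ones, and growth genes of the fetus are turned down. A tetraploid gate takes in cells that have finished S phase and not divided, which includes those in G2 and M phase.

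UMIs were summed per gene over the CMs of a library and scaled to CPM, which stands for counts per 1 M UMIs of the CMs. A ratio is P5 over P1 on the log2 scale, and the range in parentheses after it is the exact 95% interval of the split of the UMIs between the libraries. After a CPM the range is the exact 95% interval of the count. After a share of cells it is the exact 95% binomial interval over the cells of a library. All of these cover counting error only, and the cells of a library are not replicates of an age. A gene was called higher or lower, and is said to have risen or fallen, when its CPM differed by at least 1.5-fold and the interval excluded equal CPM. The CMs held 19665830 UMIs in P1-4n and 18400737 in P5-4n, with medians of 3187 and 4658 UMIs per cell. Mitochondrially encoded transcripts took 16.8% and 18.02% of them. Only 21 cell barcodes were shared by these libraries, and between 17 and 62 by any pair of the series.

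Of the 9764 genes with at least 100 UMIs in both 4n libraries together, 501 rose (5.13%) and 1574 fell (16.1%) from P1-4n to P5-4n. These shares are the background for the counts of calls in gene lists over all 4n CMs below. The median gene was at -0.16, so a ratio of that size is the common shift of all genes on this scale, and 10% of the genes lay below -0.76 and 10% above 0.36. Scaled so that the median gene stayed level, 773 genes rose and 1027 fell, which moves the share of rising genes among all calls from 24.1% to 42.9%. In 2n CMs, 671 of 9230 genes rose (7.27%) and 839 fell (9.09%), with a median of -0.09. Among 9178 genes tested in both ploidies, 295 rose in both, which is 68.6% of the genes that rose in 4n and 45.0% of those that rose in 2n. A further 487 fell in both, 38.7% of the 4n and 58.4% of the 2n list. None rose in 4n and fell in 2n, whereas 84 fell in 4n and rose in 2n.

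Markers of other cell types differed between the 4n libraries. The 4 CM markers, by which the cells were chosen, summed to 28901 CPM at P1 and 30059 CPM at P5 in the 4n gate. None of them passed 1.5-fold, but each cell had to hold all 4, so this does not test the CM label. All 8 fibroblast markers fell in 4n CMs, in sum from 947 CPM (933 to 960) to 360 CPM (351 to 369), and among them collagen Col3a1 fell from 288 to 114 CPM. Fibroblasts make the collagen matrix of the heart, and CMs are not known for high collagen expression. Of 8 endothelial markers 7 fell (Cdh5 was at -0.58), in sum from 743 to 475 CPM. All tested macrophage (6), mural (6), erythroid (5) and epicardial (2) markers fell as well, from 38.4 to 12.2 CPM, 92.7 to 43.3 CPM, 2906 to 1649 CPM and 15.6 to 5.98 CPM. In 2n CMs the fibroblast and endothelial sums went the other way, from 142 to 263 CPM and from 258 to 454 CPM. No marker of any of these types was at 0 in either 4n library. When each cell was thinned at random to 2000 UMIs, 46.1% (44.5 to 47.7) of P1-4n and 22.9% (21.6 to 24.4) of P5-4n CMs held at least 2 UMIs of these markers without the hemoglobins. In P1-2n and P5-2n the shares were 10.3% and 17.2%.

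**Figure D1:**
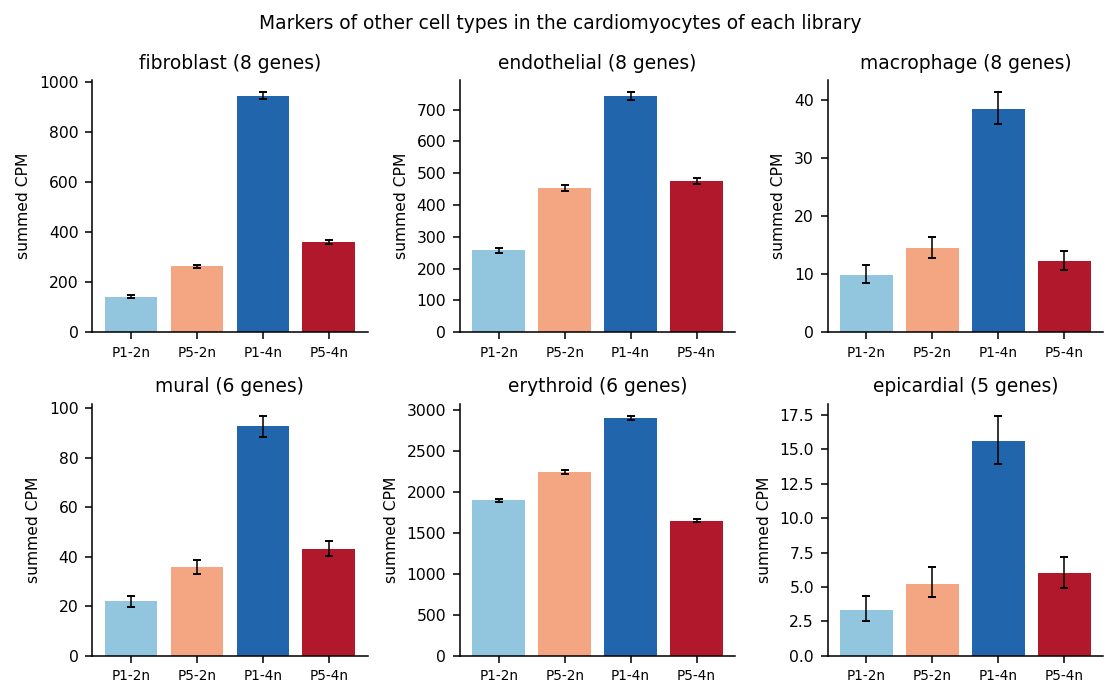
Summed CPM of the marker genes of 6 other cell types (y axis, linear from 0) in the CMs of P1-2n, P5-2n, P1-4n and P5-4n, with exact 95% intervals of the counts as error bars. P1-4n is the highest bar in each panel, at 947 CPM for the fibroblast and 743 CPM for the endothelial markers.

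For this reason the comparison was also made without the CMs that held 2 or more UMIs of those markers before thinning. This kept 2056 CMs of P1-4n and 1946 of P5-4n, with medians of 2693 and 4470 UMIs per cell. Deeper CMs were thus left out more often, and the depth stayed unequal. Of the 7242 genes that then had 100 UMIs, 475 rose (6.56%) and 667 fell (9.21%). From the original calls, 354 of the 501 and 492 of the 1574 were made again. Of the genes that were lower, 886 no longer had 100 UMIs. Values from these CMs are given below as values without marker-bearing cells. The background for their counts of calls is 6.56% higher and 9.21% lower. Transcripts of the Y chromosome also differed: Eif2s3y fell from 45.2 to 19.8 CPM, Ddx3y from 22.3 to 9.46 CPM and Uty from 6.36 to 1.58 CPM, and all 3 fell in 2n as well. Xist, which is transcribed from the inactive X chromosome of females, was at 96.9 and 84.7 CPM in 4n, and rose in 2n from 60.7 to 108 CPM. The part of this difference in the other results was not tested.

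Genes of G2 and M phase rose together. All 40 genes of the G2/M list were tested and all 40 rose in P5-4n, with a median ratio of 1.72 against -0.16 over all genes, and their sum went from 1288 to 3798 CPM. The ratios ranged from 0.83 for Cks1b to 2.34 for Hmmr. Many promoters of such genes are known to carry a CHR element, bound by the DREAM and MuvB complexes, and CCAAT boxes, bound by NF-Y. Both were searched for on both strands in the 250 bases before the start in RefSeq promoter windows of GRCm38.p6, the CHR as TTTGAA and the CCAAT box as CCAAT. For 34 of the 40 genes there were 35 windows, of which 28 (80%) held a CCAAT box and 13 (37.1%) a CHR. Over all 32851 windows the shares were 33.85% and 16.0%, and over the 9641 windows of genes tested here 35.2% and 10.2%. In the 27 windows of S phase genes they were 62.96% and 14.81%, with both motifs in 11.11%. In the 14 windows of cytokinesis genes they were 50% and 28.57%, with both in 21.43%. Both motifs stood in 12 of the 35 windows (34.3%), against 5.55% of all windows and 3.85% of those of tested genes. From these 12, 3 are printed because they show the arrangement in genes that carry the result, a mitotic kinase, a trigger of anaphase and a topoisomerase. Each is the stretch of 200 bases before the RefSeq start, 5′ to 3′ on the strand of the gene, with the motifs in capitals.
Cdk1: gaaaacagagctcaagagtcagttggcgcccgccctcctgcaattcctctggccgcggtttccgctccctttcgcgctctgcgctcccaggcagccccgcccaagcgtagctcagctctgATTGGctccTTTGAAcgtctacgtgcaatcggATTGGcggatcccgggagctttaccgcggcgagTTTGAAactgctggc
Cdc20: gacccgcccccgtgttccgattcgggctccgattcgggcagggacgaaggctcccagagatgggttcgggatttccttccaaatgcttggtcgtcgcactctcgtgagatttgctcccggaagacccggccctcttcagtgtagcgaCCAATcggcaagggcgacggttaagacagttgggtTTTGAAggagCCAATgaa
Top2a: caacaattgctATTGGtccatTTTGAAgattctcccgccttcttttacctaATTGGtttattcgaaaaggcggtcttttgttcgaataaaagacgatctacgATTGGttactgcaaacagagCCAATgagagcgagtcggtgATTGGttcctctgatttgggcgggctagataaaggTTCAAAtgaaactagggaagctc
The Cdk1 stretch lies at chr10:69352913-69353112, the Cdc20 stretch at chr4:118437344-118437543 and the Top2a stretch at chr11:99024190-99024389, all on the minus strand. A CHR begins 15, 18 and 23 bases before the RefSeq start of Cdk1, Cdc20 and Top2a, and 8 of the 12 windows had one that began within 30 bases of it. In the GENCODE annotation the last 26 bases of the Cdk1 stretch and the last 9 of the Cdc20 stretch lie in an exon. By that annotation this CHR of Cdk1 is inside the gene, and so is the CCAAT box of Cdc20 that begins 8 bases before its start. A match of letters is a description and does not show that a factor was bound.

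The kinases that drive entry into mitosis and their cyclins were among the G2/M genes that rose. Cdk1, the kinase of mitotic entry (chromosome 10, 69335146 to 69352938, minus strand), went from 60.2 to 186 CPM, a ratio of 1.63 (1.53 to 1.72). Its cyclin partner Ccnb1 went from 29.4 to 98.4 CPM, a ratio of 1.74 (1.60 to 1.88). Ccna2, the cyclin of S and G2 phase, went from 30.2 to 121 CPM, a ratio of 2.00. Plk1, Aurka and Aurkb, kinases of the centrosome, the spindle and the centromere, were at ratios of 1.79, 1.86 and 1.29. Cdc20, which activates the anaphase-promoting complex, had 30.5 CPM at P1 and 109 CPM at P5, and Ube2c, the ubiquitin-conjugating enzyme of the same complex, had 106 and 414 CPM. Cenpe and Cenpf, which act at the kinetochore, were at 2.24 and 2.18. Hmmr, which organises the spindle, went from 9.97 to 50.4 CPM. Nek2, a centrosome kinase outside the list, went from 4.93 to 27.1 CPM and was among the 10 largest ratios of all genes.

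The machinery of cytokinesis rose with them. Of 14 tested cytokinesis genes 12 rose and none fell, with a median ratio of 1.63. Anln, a scaffold of the contractile ring, went from 14.5 to 50.7 CPM (ratio 1.80). Prc1, which bundles the microtubules of the central spindle, went from 17.0 to 71.8 CPM, and the kinesin Kif4 from 4.07 to 21.6 CPM. Racgap1 and Kif23, the subunits of centralspindlin, were at ratios of 1.69 and 1.58, and Ect2, the exchange factor that activates RhoA at the cleavage furrow, at 1.06. The GTPase itself did not move in this way: Rhoa was at 219 and 216 CPM, a ratio of -0.02 (-0.08 to 0.04), and Dlc1, which switches RhoA off, was at -0.51. Without marker-bearing cells, 39 of 39 G2/M genes and 11 of 13 cytokinesis genes that could still be tested rose, with medians of 1.53 and 1.52.

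Genes of S phase rose less in 4n CMs than in 2n CMs. Of 29 tested S phase genes 14 rose in P5-4n and none fell, with a median of 0.58, whereas in 2n 29 of 30 rose with a median of 1.52. Of the 29 genes tested in both ploidies, 28 had the larger ratio in 2n, and for 21 the interval in 4n lay wholly below that in 2n. Over all 9178 genes 53.7% had the smaller ratio in 4n and 10.2% an interval wholly below. The helicase subunits Mcm2 to Mcm7 and the factor that loads them showed this plainly, and none of these subunits passed in 4n, where their ratios lay between -0.39 and 0.43, against 0.99 to 1.82 in 2n. Mcm6 was at 12.1 and 14.1 CPM in 4n and at 10.9 and 38.7 CPM in 2n, and Cdt1 at 7.32 and 9.02 CPM in 4n and at 9.79 and 40.6 CPM in 2n. The largest ratios in 4n belonged to the subunits of ribonucleotide reductase, which makes deoxynucleotides: Rrm2 rose from 58.9 to 208 CPM and Rrm1 from 39.2 to 95.9 CPM. For the G2/M list the order was the reverse. Of 34 members tested in both ploidies 27 had the larger ratio in 4n, with an interval wholly above that in 2n for 14 and wholly below it for none, and over all genes 46.3% had the larger ratio in 4n and 7.21% an interval wholly above. The G2/M genes rose in 2n too, 29 of 34, and over these 34 the medians were 1.71 in 4n and 1.39 in 2n. Some members differed more: Cenpa, the histone of the centromere, was at 1.55 in 4n and 0.28 in 2n, and Ccnb2 at 1.67 and 0.43. Of 10 cytokinesis genes tested in both ploidies 8 rose in 2n, with medians of 1.69 in 4n and 1.43 in 2n. None of their 4n intervals lay wholly above that in 2n, and 1 lay wholly below. The differences between ploidies were not tested.

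**Figure D2:**
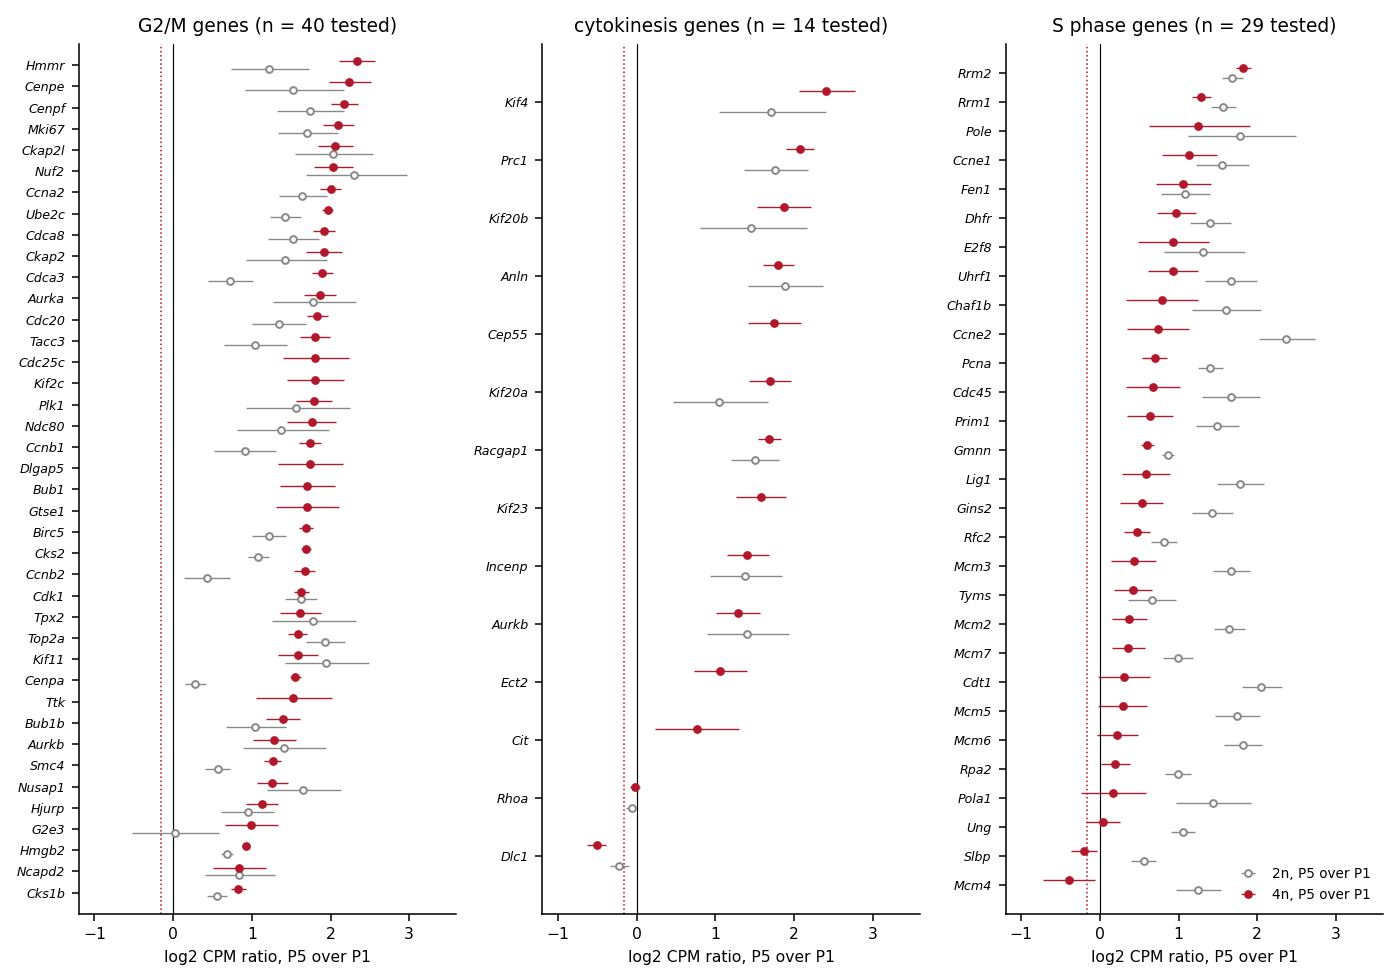
Log2 CPM ratio of P5 over P1 (x axis) of each tested gene of the G2/M, cytokinesis and S phase lists, in 4n CMs (filled) and 2n CMs (open, where tested), with exact 95% intervals. The black line marks equal CPM and the dotted line the 4n median of all genes. All 40 G2/M genes lie to the right of both lines, and 28 of 29 S phase genes have their open point to the right of the filled one.

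More cells held G2/M transcripts at P5. In CMs thinned to 2000 UMIs, 16.6% (15.4 to 17.8) of 3749 P1-4n CMs and 43.1% (41.5 to 44.8) of 3487 P5-4n CMs held at least 3 UMIs of the G2/M list. Thinning left out 998 shallower CMs of P1-4n and 167 of P5-4n, and unthinned shares were 27.4% and 57.7%. In 2n CMs the thinned shares were 7.58% at P1 and 16.5% at P5, and at E16.5 they were 39.5% in 2n and 72.0% in 4n, so that P5-4n lay between P1-4n and E16.5-4n. The class is a range of a count and not a cell type: 138 and 123 CMs of P1-4n and P5-4n held exactly 3 UMIs, and 394 and 320 held 2. Within the class the mean was 12.7 UMIs at P1 and 16.7 at P5, and in CMs with at least 5 UMIs it was 17.6 and 19.2, so that the gap between the means was smaller away from the lower limit of the class. The other CMs had means of 0.589 and 0.667, and the class held 81.1% and 95% of all UMIs of the list. No cell type without these genes was captured, so the level that free RNA gives was not measured. CMs with at least 2 UMIs of the S phase list but fewer than 3 of the G2/M list made up 12.2% of P1-4n and 8.29% of P5-4n, against 17.3% of P1-2n and 31.6% of P5-2n.

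**Figure D3:**
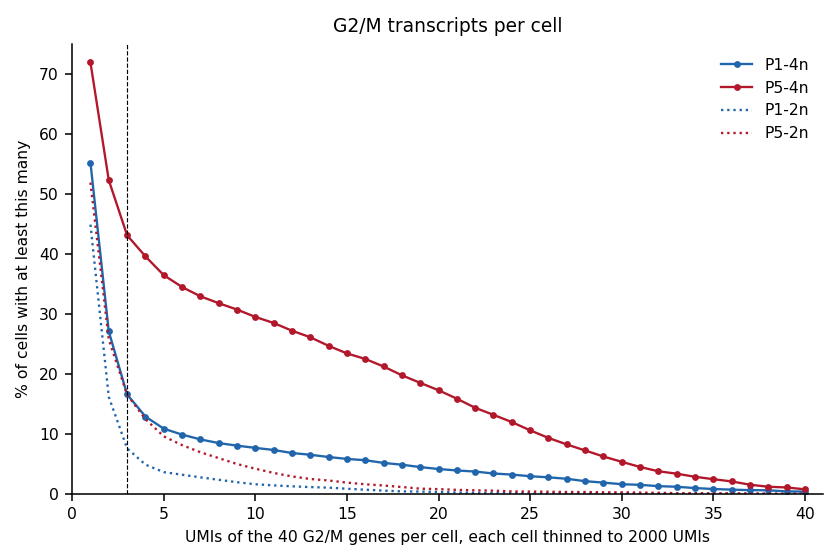
Share of CMs (y axis, %) with at least the given number of UMIs of the 40 G2/M genes (x axis), each CM thinned to 2000 UMIs, in P1-4n and P5-4n (solid) and P1-2n and P5-2n (dotted). The dashed line marks 3 UMIs, where 43.1% of P5-4n and 16.6% of P1-4n CMs lie to its right or on it.

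Inhibitors of cyclin-dependent kinases moved in both directions. Of 13 tested inhibitors and arrest genes 4 rose and 4 fell, against 5.13% and 16.1% of all genes tested. Cdkn2c and Cdkn2d, inhibitors of the INK4 family that bind Cdk4 and Cdk6, rose from 25.6 to 66.0 CPM and from 65.2 to 136 CPM. Cdkn1a, the p21 inhibitor, rose from 31.0 to 55.6 CPM, and the pocket protein Rbl1 from 5.24 to 10.2 CPM. Among the genes that fell, Cdkn1c, the imprinted p57 inhibitor, went from 28.3 to 5.71 CPM and Btg2, an antiproliferative gene, from 63.7 to 25.9 CPM. Cdkn1b, which encodes p27, was at 18.1 and 15.4 CPM and did not pass. CMs with at least 3 UMIs of the G2/M list, which were chosen by their cell cycle genes and are described only, held more Cdkn2c and Cdkn2d than the other CMs. Cdkn2c was at 76.4 CPM in the class and 14.2 CPM outside it in P1-4n, and at 129 and 15.3 CPM in P5-4n. Cdkn2d was at 194 and 37.4 CPM in P1-4n, and at 262 and 35.4 CPM in P5-4n. Outside the class the ratios of P5 over P1 were thus 0.11 (-0.20 to 0.41) for Cdkn2c and -0.08 (-0.28 to 0.12) for Cdkn2d, whereas Cdkn1a was at 28.5 CPM at P1 and 54.3 CPM at P5 there. Inside the class Cdkn1a was at 42.7 and 57.9 CPM, so that class and other CMs were close at P5, with a ratio of 0.09 (-0.09 to 0.27). In the fit without CMs that held 2 or more G2/M UMIs, the ratio was -0.27 for Cdkn2c, -0.15 for Cdkn2d and 0.98 for Cdkn1a.

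The D cyclins, which answer to growth signals and start the cycle, did not rise with the mitotic genes. Ccnd1 fell from 31.5 to 14.1 CPM and Ccnd3 from 97.3 to 59.9 CPM, and Ccnd2 was at 153 and 163 CPM. In 2n Ccnd1 went from 7.42 to 14.8 CPM instead. Without marker-bearing cells Ccnd1 fell below 100 UMIs and could not be tested, and Ccnd3 was at -0.65. Of the 11 transcription factors that the study followed, E2f1, which activates S phase genes, rose from 6.36 to 14.8 CPM, and 4 fell. That list was chosen on these samples and is not independent evidence of its direction. Myc was at 5.44 and 1.41 CPM, Egr1 at 145 and 39.2 CPM, Mycn at 6.81 and 4.29 CPM and Max at 19.4 and 12.7 CPM. Zeb1 was at 22.9 and 16.9 CPM, a ratio of -0.44 (-0.65 to -0.23) that did not reach 1.5-fold, and Nfya, a subunit of the CCAAT-binding factor NF-Y, was at 7.93 and 8.15 CPM. In CMs of the G2/M class E2f1 was at 18.3 and 27.9 CPM, and in the other CMs at 3.77 and 4.29 CPM.

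Fetal contractile genes fell while most adult ones changed little. Of 10 genes of the fetal program 6 fell and 2 rose in P5-4n, with a median of -0.94. In 2n 4 of the 10 fell and 2 rose, with a median of -0.07. Myh7, the slow fetal myosin heavy chain (chromosome 14, 54970684 to 54994626), fell from 806 to 166 CPM, a ratio of -2.28 (-2.33 to -2.22), and its adult neighbour Myh6 (54941921 to 54966927) was at 2267 and 2924 CPM, a ratio of 0.37. The share of Myh7 was also counted in single cells. In thinned CMs with at least 3 UMIs of both genes together, the median share of Myh7 was 22.2% in P1-4n and 0 in P5-4n. CMs with more Myh7 than Myh6 made up 12.7% (11.6 to 13.9) of 3374 CMs at P1 and 0.943% (0.632 to 1.35) of 3075 at P5. At this depth 33.0% of P1-4n CMs held no UMI of Myh7, against 77.9% in P5-4n. Counts of Myh7 per cell are low here, so counting error alone gives zeros and spreads these shares. Whether either group is a mixture of cells was not tested. Tnni1, the fetal troponin I, fell from 4313 to 2703 CPM, and its adult counterpart Tnni3 was at 7799 and 8982 CPM. The atrial and embryonic light chains Myl7 and Myl4 fell from 132 to 30.3 CPM and from 153 to 45.2 CPM, and the natriuretic peptide Nppa from 1478 to 642 CPM. Nppb, the other natriuretic peptide, rose from 215 to 393 CPM, and skeletal actin Acta1 from 47.1 to 163 CPM. Without marker-bearing cells 5 of 9 fetal genes fell and 2 rose, with Myh7 at -2.34, Myl7 at -2.42 and Acta1 at 1.66.

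Of 15 mature sarcomere genes only Mybpc3, the cardiac myosin-binding protein C, passed, at 798 and 1204 CPM. The list lay above the shift of all genes, with a median of 0.21, and 13 of the 15 intervals were above equal CPM, against 17.5% of all genes. An interval is narrower for a gene with more UMIs, so this contrast also depends on abundance, which was not matched. Ttn, the giant spring of the sarcomere, was at 1016 and 1330 CPM, and Tpm1, a tropomyosin, had one of the 10 largest gains in CPM, from 8393 to 10903. Calcium handling moved little: of 13 genes only the L-type channel Cacna1c fell, from 74.6 to 48.5 CPM. Pln, which restrains the calcium pump, was at 5032 and 3360 CPM, just short of 1.5-fold, and the pump itself, Atp2a2, at 2173 and 2116 CPM. Among 12 ion channels and pumps Kcnd2 rose and Cacna1h fell, and among 11 genes of the intercalated disc Dsg2 fell. Of 11 cardiac transcription factors Gata6 fell from 112 to 63.5 CPM and Irx4 from 32.2 to 16.4 CPM, and Nkx2-5, Tbx5 and Gata4 did not pass, so that the share that fell is near the 16.1% of all genes.

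The largest rise of all genes belonged to Nmrk2, the muscle nicotinamide riboside kinase of NAD synthesis (chromosome 10, 81198170 to 81202051). It went from 38.5 CPM (758 UMIs) to 273 CPM (5031 UMIs), a ratio of 2.83 (2.72 to 2.94), and in 2n from 49.2 to 461 CPM. Xirp2, an actin-binding protein of the costamere and disc, rose from 8.24 to 45.5 CPM, and Ankrd1, a stretch-responsive repeat protein of the titin spring and a YAP target, from 693 to 1765 CPM. Yap1 itself was at 29.0 and 26.5 CPM, and the other target Cyr61 at 110 and 81.4 CPM. Ckmt2, the mitochondrial creatine kinase of striated muscle, rose from 277 to 722 CPM (ratio 1.38), and Ckm, the cytosolic form, was at 2645 and 2001 CPM. Oxct1, the enzyme that lets heart muscle burn ketone bodies, rose from 142 to 305 CPM, whereas the other 3 ketone genes tested did not pass. Without marker-bearing cells these ratios were 2.78 for Nmrk2, 2.38 for Xirp2, 1.32 for Ankrd1, 1.29 for Ckmt2 and 1.12 for Oxct1. Of the other large ratios, Klhdc8a was at 2.08 and 13.0 CPM, the helicase gene Pif1 at 1.07 and 6.58 CPM, the ubiquitin ligase gene Neurl1b at 9.76 and 53.9 CPM, Neto2 at 1.58 and 8.15 CPM, and Arhgap11a at 13.0 and 64.0 CPM.

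Some of these genes differed between the cells of the G2/M class and the others, and some did so little. In P5-4n, CMs of the G2/M class held 119 CPM of Nmrk2 and the other CMs 402 CPM, against 23.8 and 44.6 CPM in P1-4n. Acta1 was at 103 CPM in the class and 212 CPM outside it in P5-4n, and Ankrd1 at 1468 and 2018 CPM, whereas in P1-4n Ankrd1 was at 750 CPM in the class and 714 CPM outside it. Ckmt2 was at 687 and 755 CPM in P5-4n and at 291 and 283 CPM in P1-4n. Myh7 was lower in the class as well, at 109 CPM against 211 CPM in P5-4n. The mature sarcomere list took 37262 CPM in the class and 47044 CPM outside it at P5, and 33405 and 38576 CPM at P1. The class was chosen by other genes in the same cells, so these values are descriptions.

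Core energy metabolism differed little between P1-4n and P5-4n. Of 22 genes that serve fatty acid uptake and oxidation only the thioesterase gene Acot2 passed and fell, and the list had a median of -0.12. Of its intervals 5 lay above equal CPM and 13 below, against 17.5% and 41.8% of all genes. Fabp3, the fatty acid carrier, was at 5384 and 6131 CPM, and Cpt1b, the muscle transporter of long-chain acyl groups into mitochondria, had 2 and 3 UMIs and could not be tested. None of 22 genes of the citric acid cycle passed, with a median of 0.18, and 16 intervals lay above equal CPM and 4 below. Of 75 nuclear genes of the respiratory chain only Ndufa4l2 passed and fell, but 57 of the 75 intervals lay above equal CPM and 13 below, against 17.5% and 41.8% of all genes, with a median of 0.16. Among 12 mitochondrially encoded genes only mt-Nd5 passed and rose, and the list had a median of 0.08. Its members moved both ways in CPM. The largest gain of any gene was that of mt-Co1, a core subunit of cytochrome oxidase, from 23997 to 33669. Large gains were also seen for mt-Co3, from 38556 to 43570, and mt-Nd4, from 8930.5 to 10391. Among the largest losses of all genes were mt-Atp6, from 35037 to 31237, and mt-Nd1, from 21009 to 18868. Of 21 glycolytic genes Aldoc and the glucose transporter Slc2a1 fell, and the list had a median of 0.24. Its intervals lay above equal CPM for 12 genes and below for 4. Of the 76 mitochondrial ribosomal proteins Mrps25 rose, and of 79 cytosolic ones Rpl3l, a muscle paralog of Rpl3, rose, with medians of 0.11 and -0.28. For the mitochondrial ones 39 intervals lay above equal CPM and 11 below. For the cytosolic ones 5 lay above and 74 below, and Rps27 had one of the 10 largest losses, from 2129 to 1484 CPM. As for the sarcomere list, these counts of intervals also depend on the number of UMIs of the genes.

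Some genes that answer to fasting fell. Of 11 genes of lipid droplets and fasting 5 fell and none rose, against 16.1% and 5.13% of all genes tested. Angptl4, an inhibitor of lipoprotein lipase, fell from 69.8 to 34.6 CPM. Ucp2, Ucp3 and Dgat2 fell by 0.96, 0.65 and 0.76 on the log2 scale, and Pdk4, the kinase that shuts off pyruvate oxidation, was at 94.4 and 100.3 CPM. All 5 also fell in 2n, and without marker-bearing cells 5 of 11 fell again. Of 17 antioxidant genes 5 fell and 1 rose, beside the same shares of all genes. The metallothioneins Mt1 and Mt2, which bind zinc and copper, fell from 743 to 423 CPM and from 137 to 46.3 CPM, Txnip, which inhibits thioredoxin, from 570 to 289 CPM, and Nqo1, a quinone reductase, rose from 10.6 to 17.6 CPM. Of 10 hypoxia genes only Ndrg1 passed and fell, and of 10 metabolic nuclear receptors Rxra and Nr3c2 fell, again near the 16.1% of all genes.

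The response to amino acid shortage held the gene of largest fall. This program is run by Atf4, which turns on enzymes of amino acid synthesis when charged tRNA is short. Trib3, a target of Atf4 (chromosome 2, 152337422 to 152344032), went from 8.03 CPM (158 UMIs) to 0.435 CPM (8 UMIs), a ratio of -4.21 (-5.44 to -3.19). Asns, asparagine synthetase, fell from 20.4 to 2.12 CPM, and Phgdh, the first enzyme of serine synthesis, from 34.6 to 7.17 CPM. In 2n CMs these 3 genes were at -5.21, -3.70 and -3.81. Of 10 tested members 6 fell and none rose, Sesn2, Gdf15 and Ddit3 being the others. Psat1, which acts next to Phgdh in serine synthesis, was at 12.4 and 15.7 CPM, and Atf4 at 108 and 83.3 CPM. Fgf21, a hormone induced by the same factor, had 2.90 CPM in P1-4n and no UMI in P5-4n, and was under the filter. The list's median was -0.86. Without marker-bearing cells 4 of 8 members fell, with a median of -0.61, and Asns was at -3.64.

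Imprinted growth genes fell together. All 11 tested members fell in P5-4n, with a median of -1.84 against -0.92 in 2n, where 8 of 11 fell. Dlk1, a Notch-related protein of fetal tissue (chromosome 12, 109452823 to 109463336), went from 28.6 to 1.90 CPM, a ratio of -3.91 (-4.45 to -3.42), and Meg3 from the same imprinted region (109541001 to 109571726) from 79.3 to 16.6 CPM. H19, a long noncoding RNA (chromosome 7, 142575529 to 142578143), fell from 354 to 49.8 CPM, and its neighbour Igf2, the fetal growth factor (142650766 to 142666816), from 305 to 101 CPM. Igf2r, the receptor that clears Igf2, fell from 215 to 88.8 CPM, and Mest from 178 to 49.7 CPM. The fibroblast markers fell from 947 to 360 CPM between the same libraries. Without marker-bearing cells 9 of 10 members fell, with a median of -1.26, H19 was at -3.55, Mest at -2.74, Meg3 at -2.05 and Igf2 at -1.23, and Dlk1 had too few UMIs to be tested. The fetal RNA-binding genes that go with this program were few. Igf2bp2, Igf2bp3 and the growth regulator Gpc3 fell, from 11.8 to 5.27 CPM, from 15.1 to 9.89 CPM and from 27.3 to 4.78 CPM, and Hmga1 did not pass.

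Immediate early and heat shock genes fell as a group. All 13 fell in P5-4n, with a median of -1.34, and 10 of 13 fell in 2n, with a median of -0.95. Fos, a subunit of the AP-1 factor, went from 268 to 90.5 CPM, Egr1, a zinc finger factor induced by growth signals, from 145 to 39.2 CPM, and the inducible chaperone Hspa1a from 179 to 91.5 CPM. Each of the 13 had the lower ratio in 4n, as did 53.7% of all genes tested in both ploidies. Without marker-bearing cells all 13 fell again, with a median of -1.30. Malat1, a nuclear noncoding RNA, had the largest loss in CPM of any gene, from 7128 to 2796 CPM in 4n, and was at -1.18 in 2n. Neat1, another nuclear RNA, was at 16.4 and 22.4 CPM.

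The other large falls included genes that are on none of the marker lists, and the cells that expressed them were not identified. S100a8 and S100a9, which neutrophils express at high levels, fell from 7.07 to 0.435 CPM and from 6.51 to 0.489 CPM. The chemokine genes Cxcl2 and Ccl2 fell from 10.5 to 1.30 CPM and from 12.9 to 1.96 CPM, and in 2n, where neither reached 100 UMIs, they were at 0.669 and 1.90 CPM and at 1.16 and 2.12 CPM. Dpep1, a dipeptidase, fell from 7.88 to 1.14 CPM and Npr3, the clearance receptor of natriuretic peptides, from 7.22 to 1.09 CPM. The summed markers of all 6 other cell types were lower in P5-4n as well, and their part in these falls was not tested. None of the 6 genes had 100 UMIs left without marker-bearing cells.

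**Figure D4:**
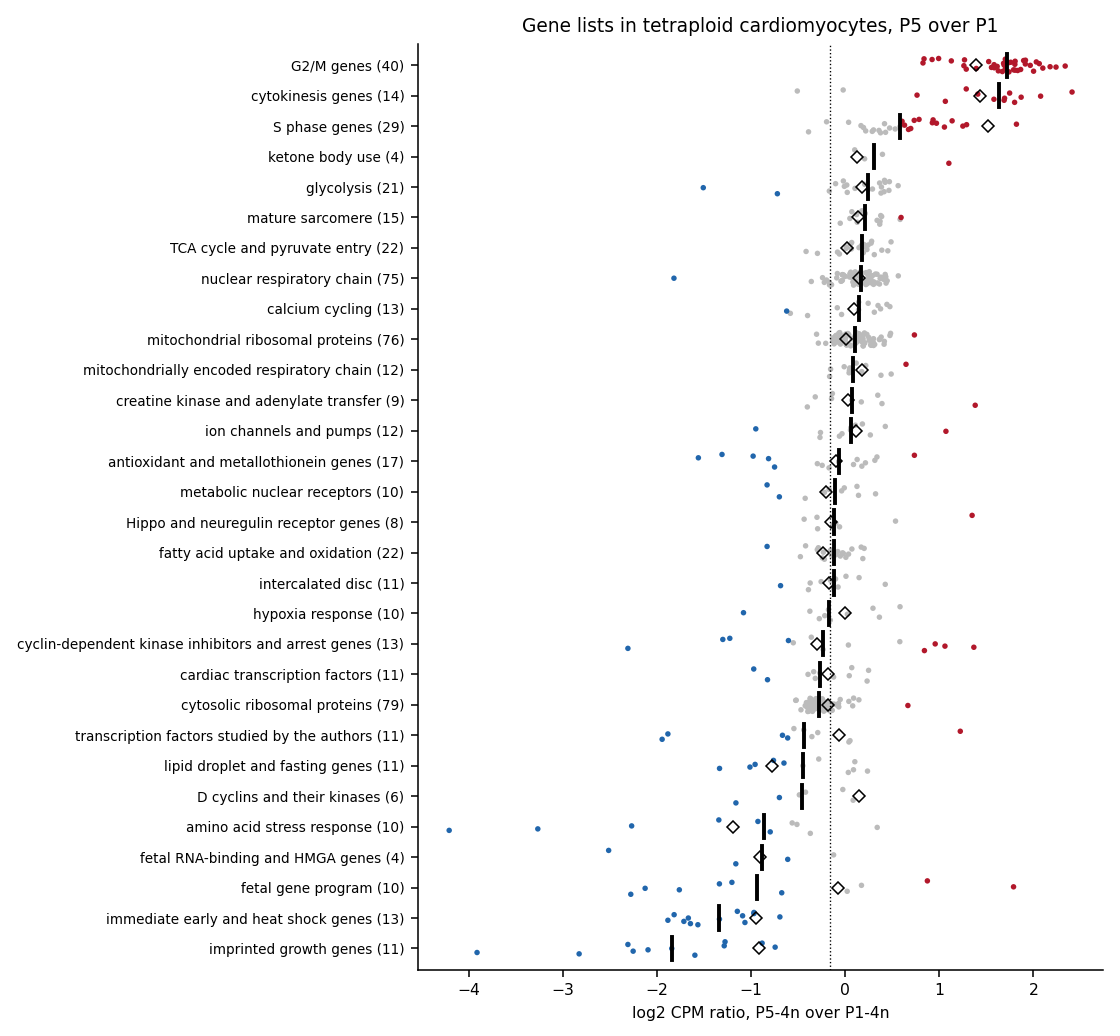
Log2 CPM ratio of P5-4n over P1-4n (x axis) of every tested gene of 30 lists (number tested in parentheses), red where called higher, blue where called lower and grey otherwise. Black bars are the list medians in 4n, diamonds the medians in 2n, and the dotted line is the 4n median of all genes at -0.16. The G2/M list stands highest at 1.72 and the imprinted growth genes lowest at -1.84.

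The change from P1 to P5 was similar in outline in the ploidies and differed in named places. Across the 9178 genes tested in both, the ratios in 4n and 2n had a Pearson correlation of 0.632, a description over genes, which are not independent and whose cells come from the same litters. The genes furthest above their 2n ratio in 4n were Hist1h1c, a linker histone at 0.47 against -1.31, Knstrn, a kinetochore protein at 1.87 against 0.18, Phgdh at -2.27 against -3.81, Fam83d, a spindle protein at 1.41 against -0.02, and Lockd at 1.81 against 0.41. Lockd is a noncoding RNA (chromosome 6, 134929092 to 134956798) that lies next to Cdkn1b (134920401 to 134925513). It went from 82.7 to 290 CPM in 4n, while Cdkn1b did not pass. The genes furthest below were Fscn1, Col5a1, Col6a3, Mfap4 and Eln, of which 4 encode proteins of the extracellular matrix or its fibres. Of the 9178 genes, 84 fell in 4n and rose in 2n, and 13 of these 84 were on the marker lists of other cell types. Those lists together hold 41 genes, 34 of them lower in 4n. Fewer could be called in 2n, where 6 fibroblast, 6 endothelial, 5 erythroid, 2 mural, 1 macrophage and no epicardial markers were tested.

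**Figure D5:**
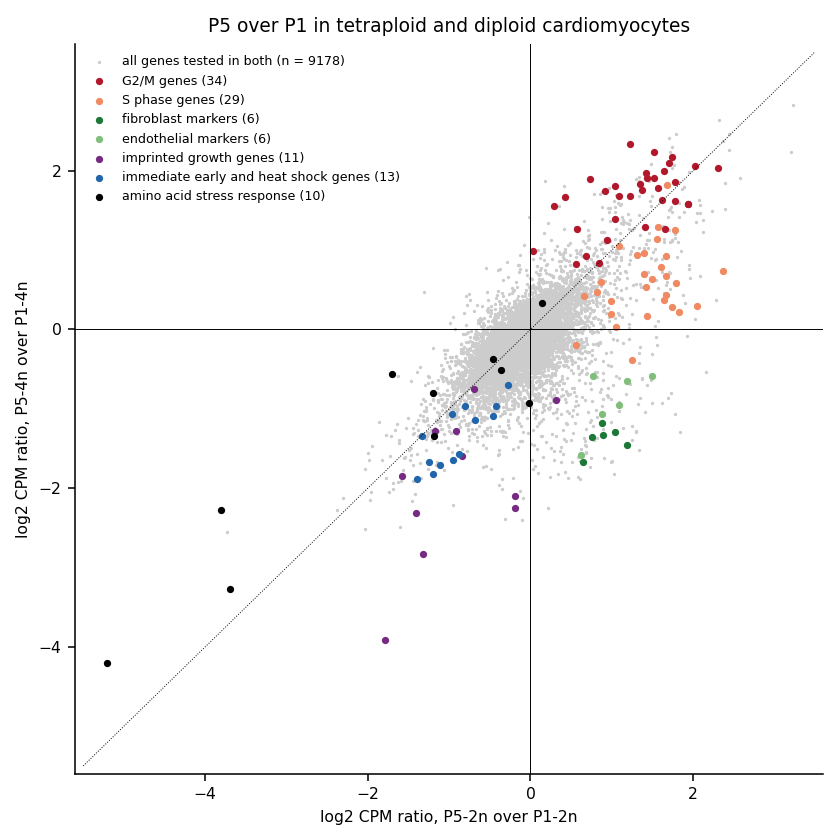
Log2 CPM ratio of P5 over P1 in 4n CMs (y axis) against 2n CMs (x axis) for the 9178 genes tested in both (grey), with 7 lists in colour and the line of equal ratios dotted. G2/M genes lie mostly above the line and S phase genes below it, and the fibroblast and endothelial markers lie in the lower right, where a gene fell in 4n and rose in 2n.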

How the data were processed

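The 6 libraries were made with 10x 3′ v2 chemistry from sorted cells, and the authors deposited for each a matrix of raw UMI counts per gene and cell. Per the labels the reads were processed with Cell Ranger, STAR and the GRCm38/mm10 genome, and Seurat 2.3.0 was used downstream; the version of Cell Ranger is not given in the sources used here. The other deposited tables were not used here. Counts were summed over CMs per library and scaled to CPM with Python 3.11.15, NumPy 2.4.6, pandas 2.3.3 and SciPy 1.17.1, and plotted with matplotlib 3.10.9. A gene entered with at least 100 UMIs in both libraries together, and a value under 3 UMIs was set to 3 for ratios. Intervals are exact at 95%. No cells were removed as doublets. The scripts were tested on simulated data. The 39 gene lists and the members were chosen with earlier results of these data known. Genes were named from those lists, as the 10 largest ratios and the 10 largest CPM differences in each direction, and as the 5 genes in each direction that differed most between 4n and 2n. Gene positions are those of GENCODE on GRCm38. Alternatives changed the scaling, the filters on genes and cells, the fold and the depth.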

Additional observations from a re-analysis of the deposited data

Results flagged for a closer look

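Markers of other cell types moved in opposite directions in the ploidies. The median log2 ratio of P5 over P1 was -1.41 in 4n and 0.88 in 2n for the fibroblast markers, -1.01 and 0.99 for the endothelial markers, and -1.77 and 0.82 for the macrophage markers, of which 1 could be tested in 2n. Single genes stood out in the same way. Fscn1 was at -1.29 in 4n and 1.84 in 2n, Col5a1 at -1.83 and 1.02, Col6a3 at -1.52 and 1.33, Mfap4 at -1.06 and 1.78, and Col1a1 at -1.45 and 1.18. With 1 library for each age and ploidy the difference between the ploidies was not tested.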

How the results depend on the processing

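Values here are relative to the median of all genes, unless a gene is named. Of the 9764 genes, 773 (7.92%) rose and 1027 (10.5%) fell with median-of-ratios scaling, and 234 (2.4%) and 571 (5.85%) at 2-fold. The settings that follow tested other numbers of genes. With at least 1 UMI, 653 (3.87%) of 16863 rose and 2542 (15.1%) fell. With thinned cells, 377 (5.13%) of 7349 rose and 994 (13.5%) fell. Without cells holding markers of other types, 475 (6.56%) of 7242 rose and 667 (9.21%) fell. Without cells holding 2 or more G2/M UMIs, 166 (2.45%) of 6770 rose and 1291 (19.1%) fell. With both kinds of cells left out, an alternative chosen after seeing the data, 126 (2.82%) of 4473 rose and 663 (14.8%) fell. Cells of both kinds were picked by unthinned counts, so deeper cells were left out more often. The fetal program (-0.78) was at -0.83 with at least 1 UMI, -0.82 thinned, -0.66 without marker-bearing cells, -0.49 without G2/M cells and -0.43 without both. Immediate early and heat shock genes (-1.18) were at -1.37 as a mean over cells, -1.37 thinned, -1.46 without G2/M cells and -1.37 without both. Imprinted genes (-1.68 over 11 genes) were at -1.89 thinned, -1.19 without marker-bearing cells and -1.91 without the 5% of cells with most UMIs. Without both kinds of cells they were at -1.41, over 6 genes. The amino acid list (-0.70 over 10 genes) was at -0.32 over 8 genes thinned, and at -0.40 over 3 without both. A median over fewer genes can move because its members differ. The G2/M list (1.88) was at 1.60 without marker-bearing cells. Leaving out cells by their G2/M UMIs removes that list by construction. It then stood at -0.22 over 6 of its 40 genes, and at -0.14 over 3 without both. The S phase list (0.74 over 29 genes) then stood at 0.23 over 10 genes, and at 0.071 over 4 without both. Genes that changed sign were Pcna at -0.11, Smc4 at -0.98, Cks1b at -0.97, Cdkn2c at -0.27, Hmgb2 at -1.05 and Cdkn2d at -0.15 without G2/M cells, and Cenpa at -0.31, Hmgb2 at -0.98, Cdkn2d at -0.023 and Gmnn at -0.083 without both. The antioxidant list (0.09) was at -0.075 without marker-bearing cells. The share of P1-4n and P5-4n CMs in the G2/M class was 27.1% and 52.3% from 2 UMIs, 10.9% and 36.45% from 5, 9.65% and 35.7% thinned to 1000 UMIs, and 27.4% and 57.7% unthinned. The other causes were not tested. Of 210 called genes named by the rule, 195 were called the same way with median-of-ratios scaling. Of those that could still be tested, 133 of 149 were called the same way without marker-bearing cells, 94 of 108 without G2/M cells, where 6 changed sign, and 56 of 67 without both, where 4 did. No paired analysis was possible because each age and ploidy has 1 library and no test was made.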
